A study of Saccharomyces cerevisiae with 2 samples.

Results

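The genes examined here encode the proteins of the large subunit of the cytosolic ribosome of budding yeast. They were defined by name, as every gene called RPL with a number, or RPP0, RPP1A, RPP1B, RPP2A or RPP2B, and there were 81 of them among 6592 named genes. Earlier results of these data were known when they were chosen. Ribosome footprints, the stretches of mRNA shielded by ribosomes, were sequenced from 1 culture with a gim3 deletion and 1 WT culture, both of the SK1 background and both sampled after 4 hours in sporulation medium, which starves the cells and sends them into meiosis. GIM3 encodes a subunit of prefoldin, a cochaperone of the cytosol that passes unfolded tubulin and actin to the CCT chaperonin. Each genotype is 1 library from 1 culture, so no difference below has a replicate check, no test between genotypes was possible, and each interval covers counting error only.

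The large subunit holds the centre that joins amino acids and the tunnel through which the new chain leaves. Most of its proteins are encoded in yeast by a pair of genes, an A and a B copy left by an ancient duplication of the genome, and the copies of a pair encode identical or nearly identical proteins. Ribosomal protein genes are transcribed together under Rap1, Fhl1, Ifh1 and Sfp1, and yeast cells are known to lower them when nutrients run out. By name the members fell into 35 pairs and 11 single-copy genes, 46 proteins in all, spread over 14 chromosomes. The acidic stalk proteins were counted as the pairs RPP1 and RPP2.

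The gim3 deletion library held 27864644 counted footprints and the WT library 40433177. GIM3 had 3 reads, or 0.108 RPM (reads scaled to a library of 1000000), in the gim3 deletion library against 34.9 RPM in the WT library. Markers of early meiosis were abundant in both libraries, and the 8 listed (IME1, IME2, SPO11, DMC1, REC8, ZIP1, HOP1 and RED1) summed to 17035 RPM in the gim3 deletion library and 17255 RPM in the WT library. Middle meiotic markers differed, since all 8 listed were higher by 2-fold or more in the gim3 deletion library and they summed to 13258 RPM there against 924 RPM in the WT library. Of 8 haploid mating genes, which a diploid in meiosis keeps low, 7 were under the level needed for comparison, and the sums were 40.7 RPM in the gim3 deletion library and 28.1 RPM in the WT library. The 1 above that level, STE3, had 22.8 RPM in the gim3 deletion library and 14.1 RPM in the WT library. The part of meiotic stage in the ribosomal protein values was not tested. With footprints alone from whole cultures, fewer cells of a kind, less mRNA per cell and less translation per mRNA cannot be told apart.

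Footprints on large-subunit genes were scarcer in the gim3 deletion library for every member that had any. The members together took 0.303% of the reads of the gim3 deletion library (exact 95% interval 0.301 to 0.305) against 0.840% of the WT library (0.837 to 0.843). The summed level was thus 2.77-fold lower in the gim3 deletion library (2.75 to 2.79). All 79 members with reads had a ratio of gim3 deletion over WT below 1, and the upper end of its interval was below 1 for each of the 79. Levels of these members ran from 4.59 to 191 RPM with a median of 28.2 in the gim3 deletion library, and from 10.4 to 627 RPM with a median of 88.2 in the WT library.

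**Figure D1:**
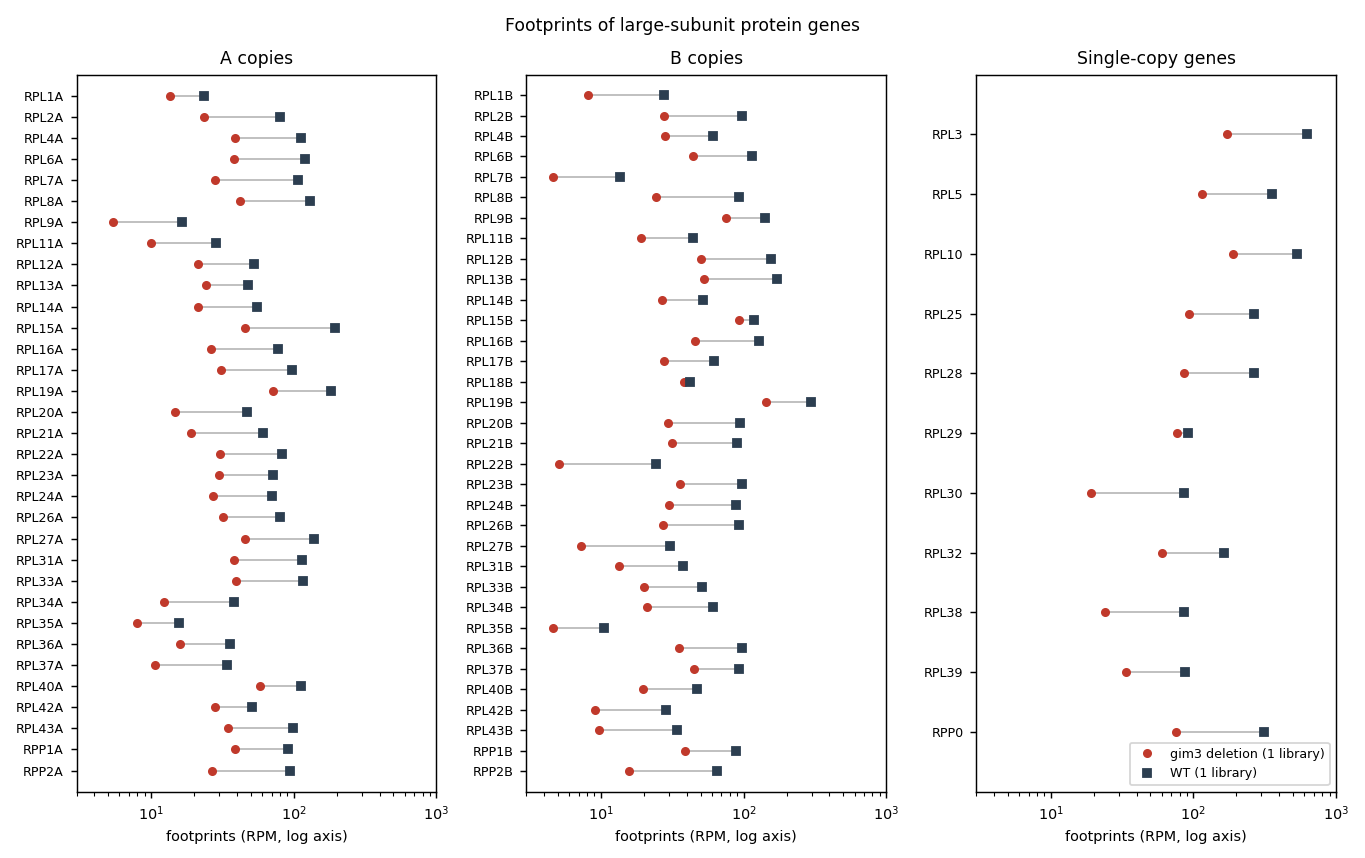
Footprints (RPM, log axis) of 78 large-subunit genes with reads, in panels for A copies, B copies and single-copy genes, with 1 circle for the gim3 deletion library and 1 square for the WT library per gene. Every circle lies left of its square, and the shortest lines join the values of RPL18B, RPL29 and RPL15B.

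To set the members beside other genes, log2 ratios of gim3 deletion over WT were taken after adding 1 RPM to each value, for genes whose 2 libraries averaged 10 RPM or more. Of the 81 members 77 passed that filter. Of these, 7 passed only through their WT value, namely RPL1B, RPL9A, RPL22B, RPL27B, RPL35A, RPL42B and RPL43B. Of the 77, 67 were lower by 2-fold or more in the gim3 deletion library, 10 were within 2-fold and 0 were higher, where 8.5% of all 4916 genes compared were at least 2-fold lower and 6.35% at least 2-fold higher. At limits of 1.5-fold and 3-fold, 74 and 29 of the 77 were lower, where 22.6% and 2.42% of all genes compared were. Without the filter, 69 of the 79 members with reads were at least 2-fold lower. The median log2 ratio of the 77 was -1.50, beside -0.20 over all genes compared. Among the 3129 other genes compared whose RefSeq length lay in the range of the members, the median was -0.17 and 7.67% were at least 2-fold lower. When ratios were centred on the median gene, 60 of the 77 were at least 2-fold lower, with RPL4B, RPL11B, RPL17B, RPL19B, RPL36A, RPL37B and RPP1B coming within the limit, and 1 member, RPL18B, turned to slightly higher, while the share of all genes at least 2-fold lower became 5.21%.

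The ratios of the members between the gim3 deletion and WT libraries spread more widely than counting error alone. Variation between cultures was not measured, so whether genotype changed the members by 1 common fold was not tested. The standard deviation of the members' log2 ratios was 0.39, whereas the interval of the median member reached 0.11 to each side. Against the summed ratio of 0.361, the intervals of 30 members lay wholly below it, those of 25 wholly above it, and those of 22 held it. RPL13A at -0.97 lay just inside the 2-fold limit, and RPL37B at -1.04 just past it.

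The 5 members with the lowest log2 ratios, taken with 1 RPM added, were RPL30, RPL15A, RPL22B, RPP0 and RPP2B. On the plain ratio of RPM, RPL27B came before RPP0 and RPP2B. RPL30, whose protein in yeast binds its own transcript and holds back its splicing, had 19.1 RPM in the gim3 deletion library against 85.3 RPM in the WT library, 4.46-fold lower (4.07 to 4.89). RPL15A had 45.6 RPM in the gim3 deletion library against 195 RPM in the WT library, 4.28-fold lower (4.03 to 4.54). RPL22B is the lesser copy of a pair whose protein in yeast restrains splicing of RPL22B itself. It had 5.06 RPM in the gim3 deletion library and 24.2 RPM in the WT library, 4.78-fold lower (4.00 to 5.74), from 141 and 978 reads. RPL22B passed the filter only through its WT value. RPP0 and RPP2B both belong to the stalk described next. The intervals of the folds of these 5 overlapped, so their order is not settled beyond counting error.

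The P stalk is the flexible arm that recruits elongation factors to the ribosome. All 7 of its listed genes were lower by 2-fold or more in the gim3 deletion library, with a median log2 ratio of -1.62. Of all members compared 87.0% were, and of all genes compared 8.5%, so most of any small group of members would be. RPP0, the base on which the acidic proteins sit, had 75.1 RPM in the gim3 deletion library against 312 RPM in the WT library, 4.16-fold lower (3.97 to 4.35). RPP2B stood at 15.8 RPM in the gim3 deletion library and at 65.2 RPM in the WT library, 4.14-fold lower (3.74 to 4.59). Its partner copy RPP2A had 26.6 RPM in the gim3 deletion library and 93.8 RPM in the WT library, with a log2 ratio of -1.78. The other acidic pair was less reduced, since RPP1A and RPP1B had log2 ratios of -1.21 and -1.16. With copies summed, RPP2 was 3.76-fold lower (3.53 to 4.00) and RPP1 2.31-fold lower (2.20 to 2.42), intervals that did not meet. P1 and P2 proteins pair with each other on the stalk. RPL12A and RPL12B, which encode the protein at the foot of the stalk, had log2 ratios of -1.27 and -1.62.

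Proteins close to the peptidyl transferase centre were lower throughout. All 5 listed genes were lower by 2-fold or more in the gim3 deletion library, as were 87.0% of all members compared. The median log2 ratio of the 5 was -1.72. RPL3, which reaches into the centre, had 171 RPM in the gim3 deletion library against 627 RPM in the WT library, 3.67-fold lower (3.56 to 3.79). RPL28, the gene in which changes give resistance to cycloheximide, had 85.7 RPM in the gim3 deletion library and 267 RPM in the WT library, 3.11-fold lower (2.98 to 3.25). RPL2A and RPL2B moved alike, with log2 ratios of -1.72 and -1.77. RPL10, which is loaded late and completes the subunit, was the least reduced at 191 RPM in the gim3 deletion library and 533 RPM in the WT library, 2.79-fold lower (2.71 to 2.88).

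Genes for the wall and rim of the exit tunnel were also lower. Of the 13 compared of 14 listed, 12 were at least 2-fold lower (92.3%, against 87.0% of all members compared) and 1 was within 2-fold. The median log2 ratio of the 13 was -1.34. They ran from RPL26B at -1.74 to RPL35A at -0.88. RPL25, whose protein is the docking site for factors that meet the new chain, had 92.7 RPM in the gim3 deletion library against 264 RPM in the WT library, 2.85-fold lower (2.73 to 2.98). RPL39, a very small protein that lines the tunnel, had 33.8 RPM in the gim3 deletion library and 86.9 RPM in the WT library, 2.57-fold lower (2.39 to 2.77). RPL19B, at 144 RPM in the gim3 deletion library against 299 RPM in the WT library, was close to the 2-fold limit with a log2 ratio of -1.05. RPL35A had 223 reads in the gim3 deletion library and 630 in the WT library, 1.95-fold lower after scaling (1.67 to 2.28). RPL35B, the member left out by the filter, had 4.59 RPM in the gim3 deletion library and 10.4 RPM in the WT library.

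The 5S particle, in which RPL5 and RPL11 escort the 5S rRNA into the subunit, had all 3 genes at least 2-fold lower. Of all members compared, 87.0% were. RPL5 had 115 RPM in the gim3 deletion library against 355 RPM in the WT library, 3.08-fold lower (2.96 to 3.20). RPL11A and RPL11B had log2 ratios of -1.42 and -1.17.

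The 8 genes listed for proteins that join the subunit late, in the cytoplasm, included several of the least reduced members. That list does not hold the stalk genes, whose log2 ratios ran from -2.04 for RPP0 to -1.16 for RPP1B. Of the 8, 5 were at least 2-fold lower (62.5%, against 87.0% of all members compared) and 3 within 2-fold. The median log2 ratio of the 8 was -1.28. RPL29, which encodes a small dispensable protein, differed least of the single-copy genes, with 76.7 RPM in the gim3 deletion library and 91.5 RPM in the WT library, a ratio of 0.838 (0.794 to 0.884). RPL42A had 28.1 RPM in the gim3 deletion library and 50.9 RPM in the WT library, 1.81-fold lower (1.66 to 1.97), whereas RPL42B was 3.11-fold lower (2.71 to 3.58). The RPL40 genes encode ubiquitin fused to the ribosomal protein, so that each also supplies ubiquitin. RPL40A had 57.9 RPM in the gim3 deletion library against 112 RPM in the WT library, 1.94-fold lower (1.83 to 2.05), and RPL40B had 19.7 RPM in the gim3 deletion library against 47.4 RPM in the WT library, 2.40-fold lower (2.18 to 2.65). RPL24A and RPL24B were further down, with log2 ratios of -1.34 and -1.52.

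Groups of members by evolutionary age and by need for growth had medians close to that of all members. The 28 compared genes for proteins found in all domains of life had a median log2 ratio of -1.49, and the other 49 had -1.51. The 13 genes listed for proteins that yeast can lose in rich medium had a median of -1.40 over 11 compared. That list does not hold the acidic stalk genes, whose log2 ratios ran from -1.98 for RPP2B to -1.16 for RPP1B. RPL38, one of the 13 listed, had 23.9 RPM in the gim3 deletion library and 85.7 RPM in the WT library, 3.58-fold lower (3.29 to 3.90).

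The 2 RPL41 genes, which encode the shortest protein of the ribosome, were listed at 0 in both libraries. A count of 0 allows up to 3 reads, or 0.108 RPM in the gim3 deletion library and 0.0742 RPM in the WT library. The RefSeq genes are 78 bases long, and 13 of the 21 protein-coding genes of up to 100 bases that were counted had no read in either library. The share of all named genes without reads is not given here. The unstated handling of reads that match both copies bears on this pair too. Why both genes stood at 0 was not tested, so no level of RPL41 is given.

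Single-copy genes, A copies and B copies had similar distributions. The 11 single-copy genes had a median log2 ratio of -1.61, with 10 at least 2-fold lower and RPL29 the exception. The 34 A copies compared had a median of -1.50 with 29 at least 2-fold lower, and the 32 B copies compared had -1.46 with 28 at least 2-fold lower. The filter acted unequally on these classes, since passing only through the WT value favours a call of lower. The A copies RPL9A and RPL35A passed that way, as did the B copies RPL1B, RPL22B, RPL27B, RPL42B and RPL43B, but no single-copy gene. The ratio of summed levels, gim3 deletion over WT, was 0.329 for single-copy genes (0.324 to 0.333), 0.352 for A copies (0.348 to 0.357) and 0.402 for B copies (0.397 to 0.407). Reads of single-copy genes are not divided between copies. For the pairs, the treatment of reads that match both copies is not given in the sources used here, so the values of single copies are uncertain.

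**Figure D2:**
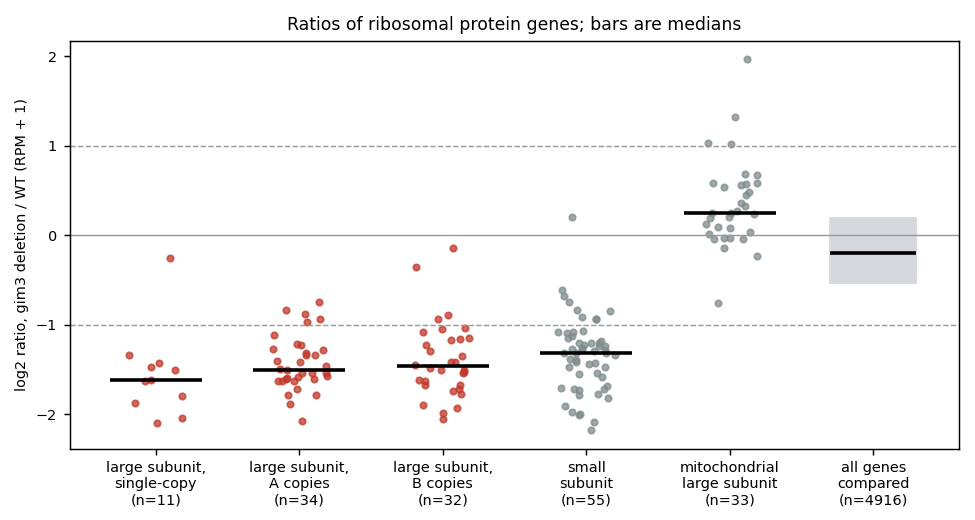
Log2 ratio of gim3 deletion over WT (RPM plus 1, 1 library each) for each gene compared, with medians as bars and the 2-fold limits dashed. At the right, the box spans the quartiles of all 4916 genes compared, and nearly all large-subunit genes lie below the box.

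Within pairs, neither letter was the more reduced. Of 31 pairs with both copies compared, the A copy had the lower ratio in 15 and the B copy in 16, and the median difference of log2 ratios, A minus B, was 0.02. Of all A copies compared 85.3% were at least 2-fold lower, of B copies 87.5%, and of all genes compared 8.5%. Most pairings of any A with any B copy would have both lower, so the next counts do not show that copies go together. Both copies were at least 2-fold lower in 24 pairs, the copies lay on different sides of the 2-fold limit in 7 pairs, and in 0 pairs were both within it. Those 7 were RPL1, RPL9, RPL13, RPL14, RPL15, RPL40 and RPL42. The copy within 2-fold was the A copy in RPL1, RPL13, RPL40 and RPL42 and the B copy in RPL9, RPL14 and RPL15. In RPL1, RPL9 and RPL42 the lower copy (RPL1B, RPL9A and RPL42B) passed the filter only through its WT value, which favours a call of lower. So did RPL22B, RPL27B and RPL43B, whose pairs had both copies lower.

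**Figure D3:**
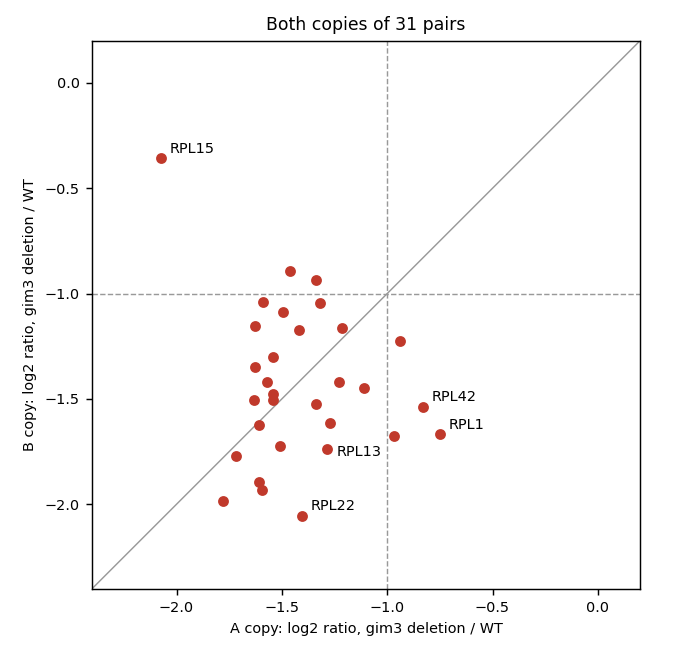
Log2 ratio of gim3 deletion over WT (1 library each) of the A copy (x axis) and the B copy (y axis) for 31 pairs with both copies compared. The solid line marks equal ratios and dashed lines the 2-fold limit. RPL15 lies far above the line, with the A copy at -2.07 and the B copy at -0.36.

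Of these 31 pairs, RPL15 was the one whose copies differed most. RPL15A, given above, was 4.28-fold lower, while RPL15B had 92.6 RPM in the gim3 deletion library against 119 RPM in the WT library, 1.28-fold lower (1.22 to 1.35). The A copy therefore made up 33.0% of the RPL15 footprints in the gim3 deletion library (exact 95% interval 31.5 to 34.5) against 62.1% in the WT library (61.3 to 63.0). In RPL15 the A copy was the larger in the WT library and the B copy in the gim3 deletion library. RPL18B, the member closest to equal levels, had 38.3 RPM in the gim3 deletion library and 42.3 RPM in the WT library, a ratio of 0.905 (0.837 to 0.977) that turns to a log2 value of 0.06 once centred. A shares are taken within a library, so no scaling between libraries enters them.

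RPL1, RPL42 and RPL13 differed in the opposite sense. RPL1 encodes the mobile stalk that guides spent tRNA out of the ribosome. RPL1A had 13.5 RPM in the gim3 deletion library against 23.4 RPM in the WT library, 1.73-fold lower (1.54 to 1.96), and RPL1B had 8.07 RPM in the gim3 deletion library against 27.8 RPM in the WT library, 3.45-fold lower (2.99 to 4.00). Its A share was 62.6% in the gim3 deletion library (58.6 to 66.5) and 45.7% in the WT library (43.5 to 47.9). The A share of RPL42 was 75.5% in the gim3 deletion library (72.7 to 78.0) and 64.1% in the WT library (62.4 to 65.8). In both RPL1 and RPL42 the counting intervals of the libraries lay apart. RPL13A had 24.1 RPM in the gim3 deletion library and 48.1 RPM in the WT library, and RPL13B had 53.0 RPM in the gim3 deletion library and 172 RPM in the WT library. The A share of RPL13 was 31.3% in the gim3 deletion library (29.3 to 33.3) against 21.9% in the WT library (21.0 to 22.7).

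Across 33 pairs with reads the A share ran from 6.68% to 86.2% with a median of 47.4% in the gim3 deletion library, and from 10.6% to 88.6% with a median of 50.6% in the WT library. It was higher in the gim3 deletion library in 16 pairs and lower in 17, and the median change was -0.20 percentage points. In 3 pairs, RPL15, RPL1 and RPL42, the change was at least 10 points, and in 22 pairs it was under 5 points. The counting intervals of the libraries lay apart in 19 pairs and overlapped in 14. The larger copy was the same in both libraries in 27 pairs and differed in 6, namely RPL1, RPL6, RPL14, RPL15, RPL26 and RPP1. In RPP1 the intervals overlapped around an equal division. RPL22 kept its A copy as the main one, with 85.8% of the pair's footprints in the gim3 deletion library (83.4 to 87.9) against 77.3% in the WT library (76.0 to 78.5).

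**Figure D4:**
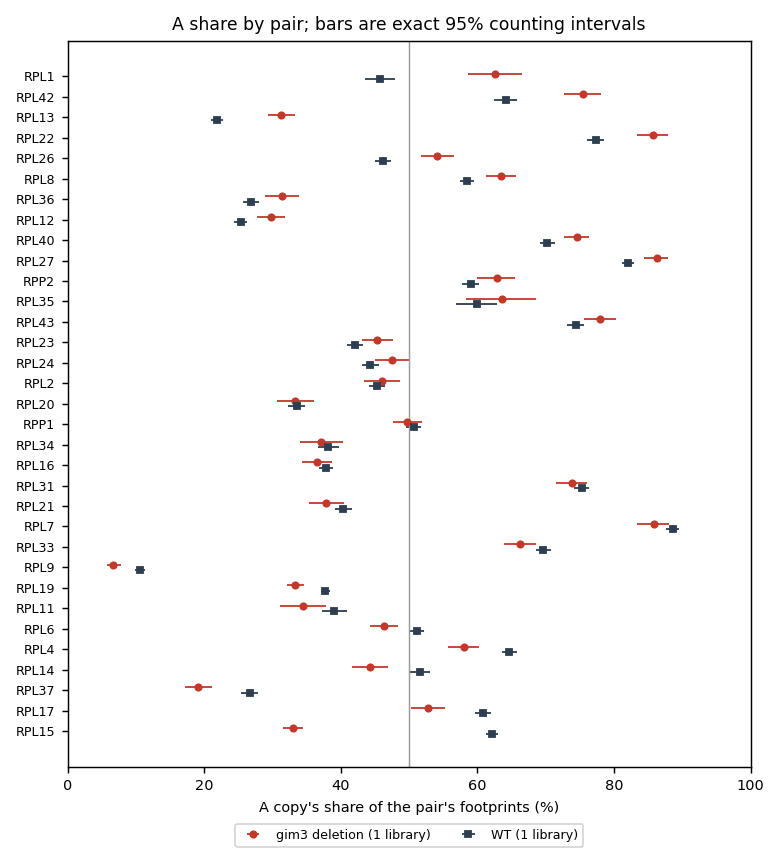
Share of each pair's footprints on the A copy (%), with exact 95% counting intervals, in the gim3 deletion library (circles) and the WT library (squares), for 33 pairs with reads ordered by the change. RPL1 is at the top with the largest gain in A share, and RPL15 at the bottom lies more than 25 points to the left in the gim3 deletion library.

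Summing copies removes the division of shared reads between them. Of 45 proteins compared, 42 were then lower by 2-fold or more in the gim3 deletion library and 3 within 2-fold, with a median log2 ratio of -1.50. The standard deviation was 0.33, against 0.39 over single genes. The 3 within 2-fold were RPL35 at -0.99, RPL9 at -0.95 and RPL29 at -0.25. RPL35 was within only because 1 RPM was added, since its plain ratio was 2.07-fold lower (1.83 to 2.34). RPL15, whose copies diverged, was 2.27-fold lower (2.19 to 2.36) as a sum. RPL9 had 80.6 RPM in the gim3 deletion library and 157 RPM in the WT library, almost all of it on RPL9B.

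Levels of different proteins can be set side by side only per coding length. That was done for 15 proteins whose genes are known to have an uninterrupted reading frame, so that the RefSeq gene length is the coding length. Per kilobase, these ran from 33.0 to 426 RPM with a median of 129 in the gim3 deletion library, and from 78.4 to 800 RPM with a median of 362 in the WT library. RPL10 was the highest in the WT library, with 287 RPM per kilobase in the gim3 deletion library and 800 in the WT library. RPL29 was the highest in the gim3 deletion library, with 426 RPM per kilobase there and 508 in the WT library. RPL1 was the lowest in both, at 33.0 RPM per kilobase in the gim3 deletion library and 78.4 in the WT library. The 6 single-copy proteins had medians of 138 RPM per kilobase in the gim3 deletion library and 453 in the WT library, and the 9 pairs, copies summed, had 122 in the gim3 deletion library and 290 in the WT library. Reads that match both copies may be missing from the pairs, and their loss was not tested.

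**Figure D5:**
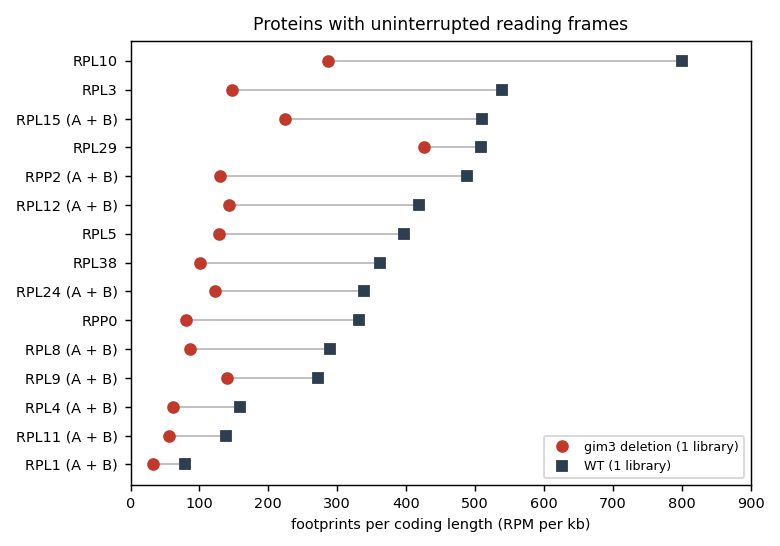
Footprints per coding length (RPM per kilobase) of 15 large-subunit proteins, copies summed where marked, with circles for the gim3 deletion library and squares for the WT library (1 library each). RPL10 is the highest in the WT library at 800, and RPL29 the highest in the gim3 deletion library at 426.

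Neighbouring genes of the members had a median close to that of all genes compared, and the part of chromosome position was not tested. In RefSeq order the members had 157 different protein-coding neighbours in the table that were not members themselves, and 132 of these were compared. Their median log2 ratio was -0.24, with 13 at least 2-fold lower and 7 at least 2-fold higher, where the background was 8.5% and 6.35%. Of the 13, 6 were small-subunit protein genes. RPL29 shares a neighbour with RPL2A, namely RRT5, a gene known to be induced in sporulation, which had 5862 RPM in the gim3 deletion library against 378 RPM in the WT library, 15.5-fold higher (15.2 to 15.8). Of its flanking members RPL29 had a log2 ratio of -0.25 and RPL2A one of -1.72. Other members stood beside sporulation genes that were far higher in the gim3 deletion library: RPP0 beside SPO77 (log2 ratio 3.47), RPL26A beside GAS2 (4.68), RPL20B beside SPS4 (2.99) and RPL5 beside SPO19 (3.76). All 79 members with reads had a ratio below 1, so that these members were lower too says nothing about position. In 2 places members adjoined each other, RPL13A with RPP1A (-0.97 and -1.21) and RPL24A with RPL30 (-1.34 and -2.10). These neighbours were singled out after their values were seen. None of the members overlaps another protein-coding gene of the RefSeq table.

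Genes of the small subunit, the closest kin of the members, had a somewhat higher median. Of 55 compared, 46 were at least 2-fold lower (83.6%, against 87.0% of the large-subunit members), with a median log2 ratio of -1.31. As sums the large-subunit genes were 2.77-fold lower (2.75 to 2.79) and the small-subunit genes 2.45-fold lower (2.43 to 2.48), intervals that did not meet but that cover counting error only. Mitochondrial large-subunit genes, which serve the separate ribosome of that organelle, lay on the other side, with a median of 0.25. Of 33 compared, 0 were at least 2-fold lower and 4 at least 2-fold higher, beside 8.5% and 6.35% of all genes compared.

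Genes that make or control the large subunit had smaller median differences than its proteins. Of all genes compared, 8.5% were at least 2-fold lower and 6.35% at least 2-fold higher, so each short list below would hold few. Of the 6 compared chaperones dedicated to single large-subunit proteins, 0 were past 2-fold, and their median log2 ratio was -0.61. RRB1, the escort of RPL3, was the lowest at -0.85, and SYO1, the escort of RPL5 and RPL11, the highest at 0.03. BCP1, the escort of RPL23, was left out by the filter. It had 2.58 RPM in the gim3 deletion library and 9.25 RPM in the WT library, 3.58-fold lower (2.78 to 4.67). Of 27 compared nuclear assembly factors of the subunit 0 were past 2-fold, with a median of -0.46, from BRX1 at -0.94 to DRS1, a helicase, at 0.74. Cytoplasmic maturation factors had a median of -0.48 over 14 compared, from JJJ1 at -0.01 to RIA1, the GTPase that helps release Tif6, at -1.04. RIA1 had 40.1 RPM in the gim3 deletion library against 83.5 RPM in the WT library and was the 1 factor of that list past 2-fold, though it came within 2-fold once centred on the median gene.

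The last list held transcription factors of ribosomal protein genes and of ribosome biogenesis genes. Of 8 compared, 1 was at least 2-fold lower and 1 at least 2-fold higher, where 8.5% and 6.35% of all genes compared were. SFP1, an activator of ribosomal protein genes, had 25.5 RPM in the gim3 deletion library against 56.5 RPM in the WT library. Its log2 ratio of -1.12 came within 2-fold once centred. IFH1, the coactivator that binds Fhl1, had 15.9 RPM in the gim3 deletion library and 31.5 RPM in the WT library, with a log2 ratio of -0.94, and RAP1 and FHL1 had -0.62 and -0.49. DOT6, a repressor of ribosome biogenesis genes, had 430 RPM in the gim3 deletion library against 214 RPM in the WT library, with a log2 ratio of 1.00. Its relative TOD6 was at -0.32, and HMO1, which binds many of the promoters, at 0.09.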

How the data were processed

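Ribosome footprints were measured in 1 gim3 deletion and 1 WT library. The submitters' processing notes name SAMtools, STAR and Bowtie2. Not given in the sources used here are the genome build, the annotation, what each tool did and in which version, and how reads with several matches were handled. Per the labels' protocols, cells grew in YEPD at 22 degrees C for 24 hours and in BYTA for 16 hours before sporulation medium. The authors deposited RPM per gene, scaled to 1000000 and not divided by length. All values (100% in each library, within 0.001 of a read) were whole multiples of the smallest, so reads were recovered. One read is 0.0359 RPM in the gim3 deletion library and 0.0247 RPM in the WT library. Lines without a gene name (86, 0.124% of gim3 deletion reads and 0.121% of WT reads) were left out of comparisons.

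Each ratio of RPM has an exact 95% interval (Clopper-Pearson), taken from how its reads divide between libraries. Reads copied by PCR count as separate here, so intervals and floors cover counting error only. Count models need replicates and were not run on the recovered reads, so 0 genes were called by one. Log2 ratios used a pseudocount of 1 RPM, which understates differences of low genes, and genes averaging 10 RPM or more were compared. The script was tested on simulated libraries.

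All 81 members matched the RefSeq table (assembly R64), used for gene lengths and neighbours only, since its build may differ from the authors'. The reading frames taken as uninterrupted were listed by hand. The members and lists were chosen with earlier results of these data known. Named in full were the 5 lowest and 5 highest members, the 5 pairs with the largest change in A share among the pairs reported, pairs on both sides of 2-fold, and members of the role lists, with the extremes of the other lists. Of the pairs, 1 is not reported here. Alternatives covered the pseudocount, filter, scaling, threshold, gene length and summing of copies. Computation used SciPy 1.17.1, pandas 2.3.3 and numpy 2.4.6 under Python 3.11.15, with statsmodels 0.14.6 for trends and matplotlib 3.10.9 for plots.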

Additional observations from a re-analysis of the deposited data

How the results depend on the processing

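No paired analysis was possible because each genotype had 1 library, and for the same reason no library could be left out. Of 63 values recomputed under alternatives, 0 called values turned direction, 44 stayed close to the reported value (within 1.5 times for counts, within the typical counting interval otherwise) and 19 moved. Centring on the median gene gave median log2 ratios of -1.30 for all members, -1.41 for single-copy genes, -1.30 for A copies, -1.26 for B copies and -1.11 for the small subunit, and a summed ratio of 0.416 in place of 0.361. A trimmed mean of ratios gave -1.33, -1.44, -1.33, -1.29 and -1.14 in the same order. A pseudocount of 5 RPM gave -1.36 for all members, -1.31 for A copies and -1.33 for B copies. Totals without cytosolic ribosomal protein genes gave a summed ratio of 0.358. The count of 67 members at least 2-fold lower became 44 with a filter at a mean of 50 RPM, which tests fewer genes, 42 proteins with copies summed, and 29 at 3-fold, a limit passed by 2.42% of all genes. At 5 rather than 10 percentage points, 11 pairs rather than 3 changed their A share. The median change in A share of -0.20 points was 0.15 points as a mean, both within the counting interval. The alternatives on gene length and without RPL29 were added after seeing the data. Leaving out pairs with identical proteins, and a trend on protein length, were not run, since no protein sequences were used here. Limits are 1 library per genotype, the unstated handling of reads that match both copies, and the difference in middle meiotic markers, whose part was not tested. The fewest reads among members with any were those of RPL7B and RPL35B in the gim3 deletion library.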
